A study of Mus musculus with 6 samples.

Results

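The genes described here encode nuclear subunits of 4 assemblies of the mitochondrial inner membrane: succinate dehydrogenase (complex II), the cytochrome bc1 complex (complex III) with cytochrome c, cytochrome c oxidase (complex IV) and ATP synthase (complex V). They were chosen by name, 34 genes in all, and found in the tables by their Ensembl gene ID, which gave a level for 31 of them among 12235 genes with a level. Uqcrfs1, Uqcrb and Atp5g2 had no events under their own IDs, and Atp5d had a level but did not pass the filter of 1 FPKM in at least 3 libraries, which left 30 members among 9300 genes tested. FPKM scales sequenced fragments to transcript length and library size, so levels can be compared between genes of different length. Each gene's level is the FPKM summed over transcript starts, replaced by transcript ends where starts were listed in fewer libraries.

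RNA was sequenced from DN3 thymocytes, the early T cell precursors that carry CD25 but lack CD4, CD8, CD44 and markers of other lineages, of untreated mice aged 5 weeks. The 3 Hspa9 cKO libraries came from mice with a conditional knockout of Hspa9, which encodes GRP75, the HSP70 chaperone of the mitochondrial matrix, and the 3 WT libraries came from wild-type mice. The study asked what GRP75 does in early thymocyte development. The labels give neither the Cre driver nor the targeted exons, and nothing in them says that the libraries stem from separate mice; the p-values then describe library-to-library spread, which may be technical. No counts were used here, so the depth behind a value is unknown.

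The respiratory chain passes electrons from succinate, through complex II, and from other donors to ubiquinone, then through complex III and cytochrome c to oxygen at complex IV. Complexes III and IV pump protons out of the matrix, and complex V lets them flow back to make ATP. All members are encoded in the nucleus and made in the cytosol, and many are carried into mitochondria by an import motor whose ATP-driven subunit is GRP75.

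Promoter sequences were read for members to see which letters they hold. RefSeq promoter windows (build GRCm38.p6) run from 250 bases before to 50 bases after the transcript start on the strand of the gene, and 24 of the 30 tested members had one. The letters of 3 factors known to act on respiratory chain genes were searched on both strands: GCGCA and GCGC with 1 free base between them for NRF1, CCGGAAG for the GA-binding protein GABP, and AAGAT followed directly by GGC for YY1. Of the 24 windows, 8 held the NRF1 letters (33.3%), 8 the GABP letters (33.3%) and 2 the YY1 letters (8.33%), against 12.6%, 21.8% and 5.83% of the 7304 windows of all genes tested. Those with the NRF1 letters belonged to Sdha, Sdhd, Uqcrc1, Atp5c1, Atp5g3, Atp5h, Atp5k and Atp5o. A match describes letters in a window and not a bound site. The 4 windows of members called lower that held a match are printed with the matched letters in capitals (reverse complements where the match is on the other strand), since Sdhb has GABP letters, Sdhd and Atp5h have both NRF1 and GABP letters, and Atp5g3 has NRF1 letters; none of these matches overlap. Of the 11 members called lower, 9 had a window, and 4 of these held a match (44.4%). Any of the 3 sets of letters was held by 15 of the 24 member windows (62.5%). Over all genes tested the share was 35.5% of the 7304 windows. Whether a match goes with a lower level was not tested.
Sdhb, chr4:140961021-140961320, plus strand: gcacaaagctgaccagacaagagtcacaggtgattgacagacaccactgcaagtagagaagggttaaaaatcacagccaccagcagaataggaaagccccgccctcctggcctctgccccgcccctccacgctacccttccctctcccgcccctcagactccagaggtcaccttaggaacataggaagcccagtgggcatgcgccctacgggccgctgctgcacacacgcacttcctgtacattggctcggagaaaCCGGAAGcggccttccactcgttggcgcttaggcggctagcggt
Sdhd, chr9:50603800-50604099, minus strand: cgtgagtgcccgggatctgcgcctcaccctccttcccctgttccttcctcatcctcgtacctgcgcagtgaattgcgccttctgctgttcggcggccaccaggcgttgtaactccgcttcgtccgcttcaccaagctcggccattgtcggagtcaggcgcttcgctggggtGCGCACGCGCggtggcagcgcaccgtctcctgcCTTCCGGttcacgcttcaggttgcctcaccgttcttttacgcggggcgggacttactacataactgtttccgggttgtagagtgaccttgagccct
Atp5g3, chr2:73911277-73911576, minus strand: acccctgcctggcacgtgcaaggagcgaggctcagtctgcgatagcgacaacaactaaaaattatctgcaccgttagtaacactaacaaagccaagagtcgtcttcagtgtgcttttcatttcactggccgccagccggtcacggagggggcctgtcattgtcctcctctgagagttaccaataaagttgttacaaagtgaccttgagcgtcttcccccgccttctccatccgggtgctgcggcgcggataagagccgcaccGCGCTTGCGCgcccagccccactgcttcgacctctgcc
Atp5h, chr11:115419870-115420169, minus strand: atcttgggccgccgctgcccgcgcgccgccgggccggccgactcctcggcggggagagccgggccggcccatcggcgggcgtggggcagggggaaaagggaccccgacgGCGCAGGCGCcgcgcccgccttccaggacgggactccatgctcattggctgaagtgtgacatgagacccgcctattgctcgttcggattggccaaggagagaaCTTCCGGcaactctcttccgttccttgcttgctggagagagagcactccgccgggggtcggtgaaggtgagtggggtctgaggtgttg

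The targeted gene was compared first. Hspa9 had levels of 117.2, 123.5 and 109.7 FPKM in the Hspa9 cKO libraries, against 105.4, 121.2 and 121.7 FPKM in the WT libraries (replicates 1, 2 and 3 in this order, here and throughout), with a log2 change of 0.01 (limma, standard error 0.088, adjusted p = 0.952). Its total level overlapped between the groups, but its transcript structure did not: transcripts that include exons 2 to 4 made up 19.3% ± 4.99 of the forms joining exons 1 and 5 in Hspa9 cKO and 92.0% ± 7.21 in WT (SD, n = 3 each). Libraries of 1 group correlated across genes with Pearson's r from 0.964 to 0.968, and libraries of different groups with r from 0.940 to 0.945; genes are not independent replicates. Of the defining DN3 markers, Il2ra (CD25) was at 367.2 to 382.9 FPKM in Hspa9 cKO and 145.3 to 158.4 FPKM in WT. Among the 14 tested DN3 markers, 8 were called higher and 1, Tcf7, lower, beside 8.48% and 5.61% of all tested genes. Rag1 was low, at a mean of 2.79 FPKM in Hspa9 cKO and 2.41 FPKM in WT. The remaining listed DN3 marker, Lck, was untested, at 0.545 FPKM in WT replicate 1 and 0 in the other libraries. Over the whole marker lists, the summed levels of double or single positive markers were 12.9 to 14.3 FPKM in Hspa9 cKO and 20.2 to 22.1 FPKM in WT, of erythroid markers 53.3 to 67.2 and 75.7 to 107.5, of NK and innate lymphoid markers 73.8 to 89.1 and 53.8 to 60.3, of B cell markers 15.3 to 18.3 and 9.75 to 12.6, and of stromal markers 59.5 to 67.6 and 36.4 to 38.2. Myeloid, gamma delta and DN1 and DN2 markers overlapped between the groups. The B cell sum came from 1 listed gene of 5 and the stromal sum from 3 of 6. Of the 3 tested NK and innate lymphoid genes, 1 was called higher and 1 lower, so that list did not move as a whole. Among the defining genes, Cd79a, Ms4a1 and Pax5 of the B cell list were not listed, nor were Hba-a1 of the erythroid list, Ncr1 of the NK list and Krt5, Krt8 and Foxn1 of the epithelial list. The part of these cell types in the results that follow was not tested, and in such bulk samples fewer cells of a type and less RNA per cell cannot be told apart.

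Subunits of complexes II, IV and V and cytochrome c were called lower in Hspa9 cKO, and none of the 7 tested subunits of the bc1 complex itself was called. Of the 30 tested members, 11 were called lower and 0 higher, a call meaning a two-sided limma p on log2(FPKM + 1) that stays under 0.05 after Benjamini-Hochberg adjustment over all genes tested, beside 5.61% of all tested genes called lower and 8.48% called higher. At an unadjusted p under 0.05, 19 members passed, each of them with a negative change, beside 12.3% of all tested genes that passed with a negative change. The median log2 change over the 30 members was -0.37, beside 0.06 over all genes tested, and 26 of the 30 changes were negative. In 20 members the 3 Hspa9 cKO libraries all lay under the 3 WT libraries and in 0 all above them, beside 15.7% and 23.1% of all tested genes. The summed level of the 31 members was 2621, 2456 and 2703 FPKM in Hspa9 cKO, against 3428, 3319 and 3710 FPKM in WT. These sums did not overlap. They include 90.5 FPKM of the untested Atp5d in WT replicate 2, against 0 in WT replicates 1 and 3. Starts of Mbd3 listed under the ID of Uqcr11 are also in them. Leaving out single libraries gave between 6 and 11 members called lower, 7, 6 and 7 without Hspa9 cKO replicate 1, 2 or 3 and 7 without WT replicate 3. With libraries rescaled by trimmed means of log ratios there were 16 members lower and 0 higher, beside 7.58% of all genes tested that way called lower and 6.75% called higher. The split over all genes was then 628 higher and 705 lower, against 789 higher and 522 lower without rescaling. With events placed by annotated exon edges 9 of 32 tested members were called lower, from transcript ends 10 of 28, and with no filter 8 of 31. Over all genes tested in these 3 ways, 529 of 9595, 493 of 8662 and 473 of 12235 were called lower.

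**Figure D1:**
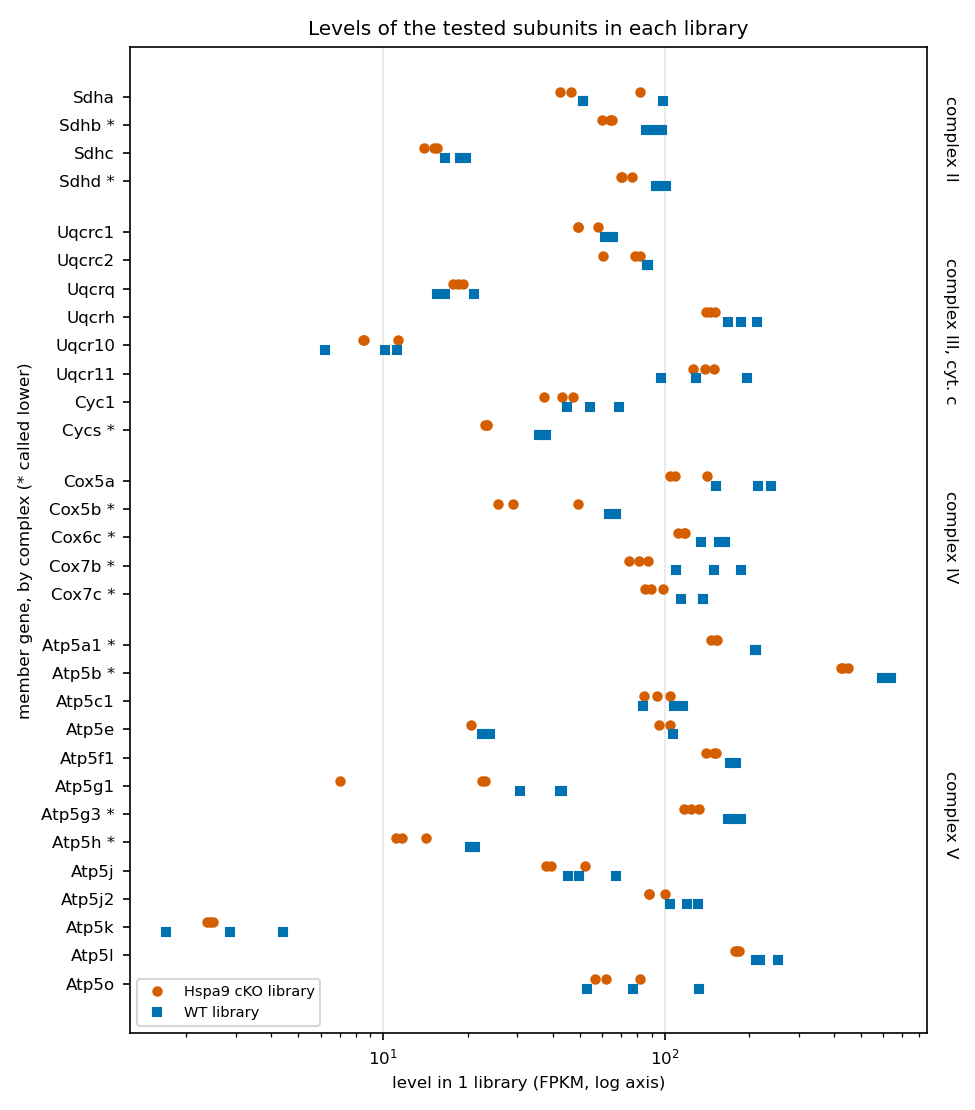
Level of each of the 30 tested members in each library, in FPKM on a log axis, with the 3 Hspa9 cKO libraries (circles) above the 3 WT libraries (squares) for each gene. In the 11 genes marked with an asterisk, called lower, every circle lies left of every square, while in Atp5e the libraries of both groups are spread over the same range, from 20.6 to 107.4 FPKM.

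**Figure D2:**
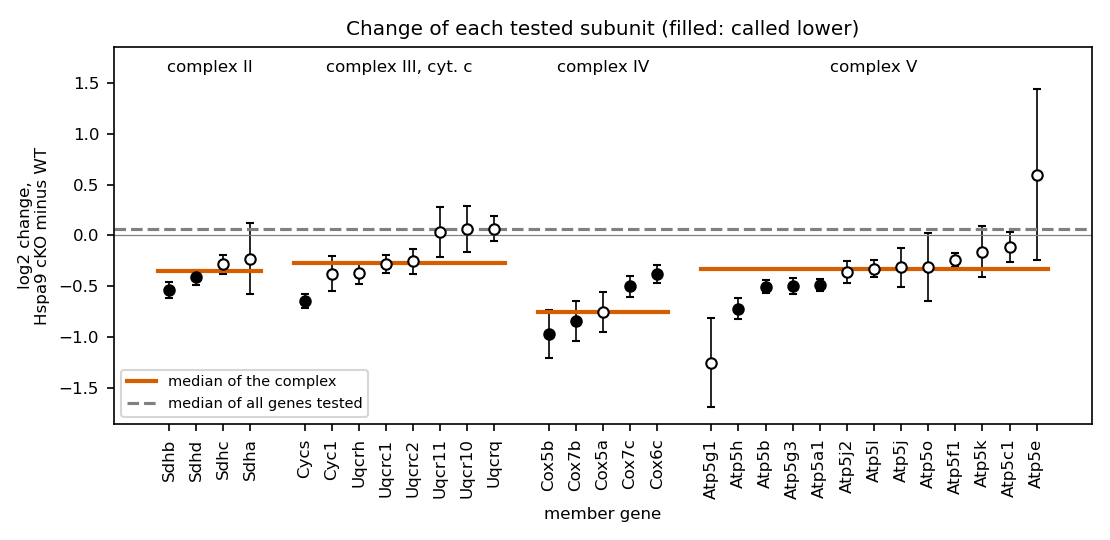
Log2 change of each tested member, Hspa9 cKO minus WT, on log2(FPKM + 1), with its standard error from limma (3 libraries each); filled points were called lower and thick lines mark the median of each complex. The medians are -0.35 for complex II, -0.27 for complex III with cytochrome c, -0.75 for complex IV and -0.32 for complex V, and the dashed line marks the median of all genes tested at 0.06.

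Complex II oxidises succinate, and its 4 genes were all lower on average, with 2 of 4 called and a median log2 change of -0.35. Sdhb, the iron-sulfur subunit (ENSMUSG00000009863; mm10 chromosome 4, 140961203 to 140979193, plus strand), had 60.1, 63.9 and 64.8 FPKM in Hspa9 cKO, against 86.1, 91.6 and 97.9 FPKM in WT. All Hspa9 cKO libraries lay below all WT libraries, and Sdhb fell by 0.54 on the log2 scale (limma, standard error 0.077, adjusted p = 0.00951). Its promoter window is the first of those printed above. Sdhd, the small anchor that binds ubiquinone and heme (ENSMUSG00000000171; mm10 chromosome 9, 50596357 to 50603812, minus strand), was at 76.4, 70.2 and 70.4 FPKM in Hspa9 cKO and at 93.0, 95.03 and 101.5 FPKM in WT. Here too the groups lay apart, with a log2 change of -0.41 (limma, standard error 0.072, adjusted p = 0.0175), which was not called without Hspa9 cKO replicate 2 (-0.39, adjusted p = 0.0661) or replicate 3 (-0.39, adjusted p = 0.0691).

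The other complex II genes did not pass the test. Sdhc, the second membrane anchor, stood at 14.0 to 15.6 FPKM in Hspa9 cKO and 16.6 to 19.7 FPKM in WT, so its groups did not overlap either (log2 change -0.28, limma, adjusted p = 0.1001). Sdha, the flavoprotein that holds the catalytic site, was at 81.8, 42.4 and 46.5 FPKM in Hspa9 cKO and at 51.3, 51.4 and 99.1 FPKM in WT. In Sdha 1 library of each group was far above the other libraries, and its change of -0.23 had a standard error of 0.35. Without WT replicate 3 the change of Sdha was 0.08. Summed over the 4 genes, complex II stood at 207.1 ± 23.2 FPKM in Hspa9 cKO and 274.0 ± 35.9 FPKM in WT (SD, n = 3 each).

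Complex III and its electron carrier had the median nearest to 0 of the 4 assemblies, -0.27 over 8 tested genes, of which 1, cytochrome c, was called lower. Cycs, somatic cytochrome c, which carries electrons between complexes III and IV (ENSMUSG00000063694; mm10 chromosome 6, 50562563 to 50566538, minus strand), had 23.1, 23.4 and 23.4 FPKM in Hspa9 cKO, against 38.0, 35.8 and 37.3 FPKM in WT. The 3 libraries within each group were close together and the groups lay far apart. Cycs fell by 0.64 on the log2 scale (limma, standard error 0.066, adjusted p = 0.00405), the smallest adjusted p among the members. Its RefSeq promoter window held none of the 3 sets of letters, which says nothing of the factors themselves.

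Of the bc1 complex itself, Uqcrh had the highest level, followed by Uqcrc2 at a mean of 80.3 FPKM over all libraries. Uqcrh, the hinge protein that helps dock cytochrome c, was at 144.6, 150.8 and 140.2 FPKM in Hspa9 cKO and at 187.2, 167.5 and 212.4 FPKM in WT. The groups did not overlap, but the change of -0.37 missed the threshold (limma, standard error 0.10, adjusted p = 0.0566). Uqcr11, a small accessory subunit, was at 126.1, 150.1 and 138.9 FPKM in Hspa9 cKO and at 129.5, 96.8 and 195.8 FPKM in WT, groups that overlap. These levels include transcript starts of Mbd3 listed under the same gene ID, which took 69.6 FPKM of the mean of 139.5 FPKM over all libraries. The starts of Uqcr11 itself were at 44.3, 79.1 and 78.8 FPKM in Hspa9 cKO and 62.6, 32.7 and 122.5 FPKM in WT. The change was 0.03 with the starts of Mbd3 (limma, adjusted p = 0.946) and 0.04 without them (adjusted p = 0.964). The transcript ends under the ID all match exon edges of Mbd3 and give no value for Uqcr11.

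The remaining bc1 genes were not called. The core proteins Uqcrc1 and Uqcrc2 had changes of -0.28 and -0.25 with groups that did not overlap (limma, adjusted p = 0.0838 and 0.218), and Cyc1, the cytochrome c1 that passes electrons to cytochrome c, had -0.38 with overlapping groups (adjusted p = 0.193). Uqcrq and Uqcr10, small accessory subunits, had 0.07 and 0.06, and both changed sign when a single library was left out: Uqcrq had -0.02 without WT replicate 1, and Uqcr10 had -0.17 without WT replicate 1 and -0.06 without Hspa9 cKO replicate 1. Placing events by the exon edges of the GENCODE M21 annotation gave a level to Uqcrb, a subunit near the ubiquinone site, whose ends were listed under the ID of Mterf3: 25.1, 21.5 and 27.6 FPKM in Hspa9 cKO and 31.8, 28.6 and 30.3 FPKM in WT. These groups did not overlap, and the change of -0.29 was not called (limma, adjusted p = 0.130). Uqcrfs1, the Rieske iron-sulfur protein, had no level by either route. The 8 genes summed to 502.9 ± 9.37 FPKM in Hspa9 cKO and 600.3 ± 87.3 FPKM in WT (SD, n = 3 each). These sums include the starts of Mbd3 under the ID of Uqcr11, a mean of 69.6 FPKM over all libraries. Neither their level nor their spread is therefore that of complex III and cytochrome c alone.

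Complex IV, which reduces oxygen, had the most negative median, -0.75, and 4 of its 5 genes were called lower; in all 5 the 3 Hspa9 cKO libraries lay below the 3 WT libraries. The 5 genes summed to 441.1 ± 25.1 FPKM in Hspa9 cKO and 697.7 ± 52.3 FPKM in WT (SD, n = 3 each). Cox5a, a matrix-side subunit that binds the core of the enzyme and has the highest level of the 5, was at 104.5, 108.9 and 141.8 FPKM in Hspa9 cKO and at 214.7, 153.0 and 238.5 FPKM in WT, measured from its transcript ends. Although these did not overlap, its change of -0.75 was not called (limma, standard error 0.20, adjusted p = 0.0544). Cox6c, a small membrane subunit (ENSMUSG00000014313; mm10 chromosome 15, 35925886 to 35938246, minus strand), was at 111.5, 117.7 and 118.4 FPKM in Hspa9 cKO and at 155.6, 134.4 and 163.9 FPKM in WT. It fell by 0.38 (limma, standard error 0.091, adjusted p = 0.0428). Cox7c, a small membrane subunit (ENSMUSG00000017778; mm10 chromosome 13, 86044816 to 86046904, minus strand), was at 98.8, 89.8 and 85.2 FPKM in Hspa9 cKO and at 137.5, 114.7 and 136.6 FPKM in WT, and fell by 0.50 (limma, standard error 0.10, adjusted p = 0.0273).

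The calls in complex IV rested on few libraries. Leaving out any library but WT replicate 2 ended the calls of Cox6c, with changes of -0.32 to -0.39, and of Cox7c, with changes of -0.45 to -0.56. That of Cox6c was also lost from transcript ends (adjusted p = 0.0568), by exon edges (0.0591), with no filter (0.0551) and with untrended variances (0.0603). Both genes kept their direction under every alternative run.

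Cox5b, the zinc-binding matrix subunit (ENSMUSG00000061518; mm10 chromosome 1, 36691449 to 36693681, plus strand), had the most negative change of the called members. It stood at 25.5, 28.8 and 49.4 FPKM in Hspa9 cKO and at 67.0, 63.5 and 66.9 FPKM in WT, and fell by 0.97 on the log2 scale (limma, standard error 0.24, adjusted p = 0.0460). Hspa9 cKO replicate 3 was the highest of its group and still below WT. Without that library the change was -1.25 (adjusted p = 0.00786), and without any 1 of the other libraries it was between -0.78 and -0.99 and not called (adjusted p between 0.0971 and 0.126). That library also had another transcript structure. A form of exon 3 that begins at an acceptor upstream of the annotated one was at 34.1 FPKM in Hspa9 cKO replicate 3, 71.97% of the forms with exon 3, and at most 0.131% in each of the other libraries. The annotated form was at 24.4, 27.5 and 13.3 FPKM in Hspa9 cKO and at 65.8, 61.8 and 65.3 FPKM in WT.

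Cox7b, a small membrane subunit (ENSMUSG00000031231; mm10 chromosome X, 106015700 to 106022450, plus strand), stood at 81.0, 87.5 and 74.7 FPKM in Hspa9 cKO and at 110.2, 187.3 and 149.4 FPKM in WT. The groups did not overlap, and the summed level fell by 0.84 (limma, standard error 0.19, adjusted p = 0.0384); leaving out any library but WT replicate 1 ended the call, with changes of -0.66 to -0.90. The sum joins transcripts with different first exons. A start upstream of every annotated one took 47.4 FPKM in Hspa9 cKO replicate 2 and 185.7 and 142.4 FPKM in WT replicates 2 and 3, and was not listed in the other libraries. The annotated start was at 80.9, 39.9 and 74.6 FPKM in Hspa9 cKO and at 110.1, 1.31 and 6.86 FPKM in WT. Without the upstream start, as when events were placed by annotated exon edges, the change was 2.27 with a standard error of 1.32 and was not called (adjusted p = 0.298), so the lower level of Cox7b depends on counting that start.

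**Figure D3:**
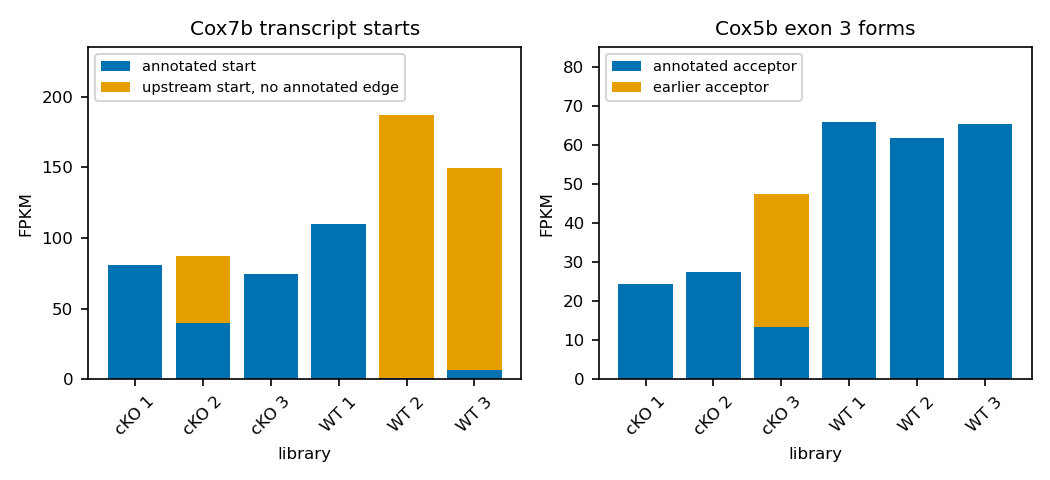
FPKM of the main transcript starts of Cox7b (left) and of the forms of exon 3 of Cox5b (right) in each library, stacked, with Hspa9 cKO replicates 1 to 3 left of WT replicates 1 to 3. The upstream start of Cox7b makes up most of the bar in WT replicates 2 and 3 and 54.2% of it in Hspa9 cKO replicate 2, and the earlier acceptor of Cox5b appears in Hspa9 cKO replicate 3, at 34.1 FPKM.

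In complex V 4 of 13 tested genes were called lower, 2 of 4 in the F1 part and 2 of 9 in the membrane part and stalk. Both parts had a negative median, -0.30 and -0.32. In the F1 part, the catalytic head with its shaft, the 4 changes ran from -0.50 to 0.60. The 14 genes of complex V with a level summed to 1442 ± 97.0 FPKM in Hspa9 cKO and 1914 ± 30.6 FPKM in WT (SD, n = 3 each). The sums include the untested Atp5d, listed at 90.5 FPKM in WT replicate 2 and at 0 in WT replicates 1 and 3. The narrow spread of the WT sums therefore rests in part on that value. Atp5b, the catalytic beta subunit (ENSMUSG00000025393; mm10 chromosome 10, 128083273 to 128090391, plus strand), had the highest level of all members, at 424.3, 431.7 and 450.0 FPKM in Hspa9 cKO and 636.3, 623.5 and 591.7 FPKM in WT. Atp5a1, the alpha subunit that alternates with beta in the head (ENSMUSG00000025428; mm10 chromosome 18, 77773729 to 77782869, plus strand), was at 152.1, 145.8 and 153.2 FPKM in Hspa9 cKO and at 210.7, 209.8 and 211.6 FPKM in WT. In both genes the groups lay far apart compared with their spread. Atp5b fell by 0.50 (limma, standard error 0.062, adjusted p = 0.00640) and Atp5a1 by 0.48 (standard error 0.059, adjusted p = 0.00614).

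In the other F1 genes no change was called. Atp5c1, the central shaft, had 84.3 to 104.5 FPKM in Hspa9 cKO and 83.7 to 116.1 FPKM in WT and a change of -0.11 (limma, adjusted p = 0.646). Atp5e, a small part of the shaft's foot, was at 95.2, 20.6 and 104.7 FPKM in Hspa9 cKO and at 107.4, 22.4 and 24.0 FPKM in WT. Each group held libraries near 100 FPKM and near 20 FPKM, and the change of 0.60, the highest among the members, had a standard error of 0.84. Atp5d, the other part of the foot, had starts at 0.703, 0 and 0.865 FPKM in Hspa9 cKO and at 0, 90.5 and 0 FPKM in WT, where a 0 can be a failed estimate. Its exon-including splice event was listed in every library, at 120.9, 132.5 and 134.1 FPKM in Hspa9 cKO and at 166.4, 112.7 and 207.0 FPKM in WT, so the start-based level of Atp5d does not describe its expression.

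In the membrane ring, Atp5g3, which with Atp5g1 and Atp5g2 encodes the same mature subunit c (ENSMUSG00000018770; mm10 chromosome 2, 73908447 to 73911326, minus strand), was at 124.2, 117.7 and 133.1 FPKM in Hspa9 cKO and at 167.6, 175.1 and 186.5 FPKM in WT. The groups did not overlap, and Atp5g3 fell by 0.49 (limma, standard error 0.078, adjusted p = 0.0133). Atp5g1 was at 22.9, 7.04 and 22.5 FPKM in Hspa9 cKO and 42.4, 30.5 and 43.1 FPKM in WT, and its change of -1.25 was not called (limma, standard error 0.44, adjusted p = 0.115). Hspa9 cKO replicate 2 was far below the other libraries, and without it the change was -0.73; leaving out any other library gave -1.51 to -1.16. Atp5g2 was listed under the ID of Mir688; by exon edges it was at 66.5, 61.7 and 58.9 FPKM in Hspa9 cKO and at 60.6, 65.2 and 77.4 FPKM in WT, with overlapping groups and a change of -0.11 (adjusted p = 0.528). These genes have similar coding sequence, so reads could have been split between them.

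Of the stalk and accessory genes, Atp5l, the small subunit g, had the highest level, at 184.4, 181.5 and 178.3 FPKM in Hspa9 cKO and 218.8, 211.5 and 254.1 FPKM in WT. It did not overlap between the groups but missed the threshold, with a change of -0.32 (limma, standard error 0.086, adjusted p = 0.0550). Atp5f1, the subunit b of the outer stalk, likewise had -0.24 without overlap (adjusted p = 0.0580), and Atp5j2, the small subunit f, had -0.36 without overlap (adjusted p = 0.0777). Atp5j and Atp5o, both of the outer stalk, had -0.31 and -0.31 with overlapping groups, and Atp5o had 0.04 without WT replicate 3; its gene ID also held a start of Donson, at a mean of 5.26 FPKM.

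Atp5h and Atp5k gave different answers from their starts and from their ends. Atp5h, the subunit d of the outer stalk (ENSMUSG00000034566; mm10 chromosome 11, 115415689 to 115419962, minus strand), was at 11.1, 14.2 and 11.6 FPKM in Hspa9 cKO and at 21.3, 20.8 and 20.3 FPKM in WT by its starts. It fell by 0.72 (limma, standard error 0.11, adjusted p = 0.0107), with all Hspa9 cKO libraries below WT. Its transcript ends were several times higher, at 99.2, 100.1 and 70.2 FPKM in Hspa9 cKO and at 114.6, 94.97 and 112.7 FPKM in WT, which overlap, and gave -0.27 (adjusted p = 0.311). Atp5k, the small subunit e, was the reverse. Its starts were the lowest level among the tested members, at 2.36 to 2.49 FPKM in Hspa9 cKO and 1.69 to 4.39 FPKM in WT, with a change of -0.16 that was 0.09 without WT replicate 3. Its ends were at 37.3, 35.7 and 41.0 FPKM in Hspa9 cKO and at 65.5, 58.4 and 76.2 FPKM in WT, without overlap, and fell by 0.79 (limma, standard error 0.11, adjusted p = 0.0108).

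**Figure D4:**
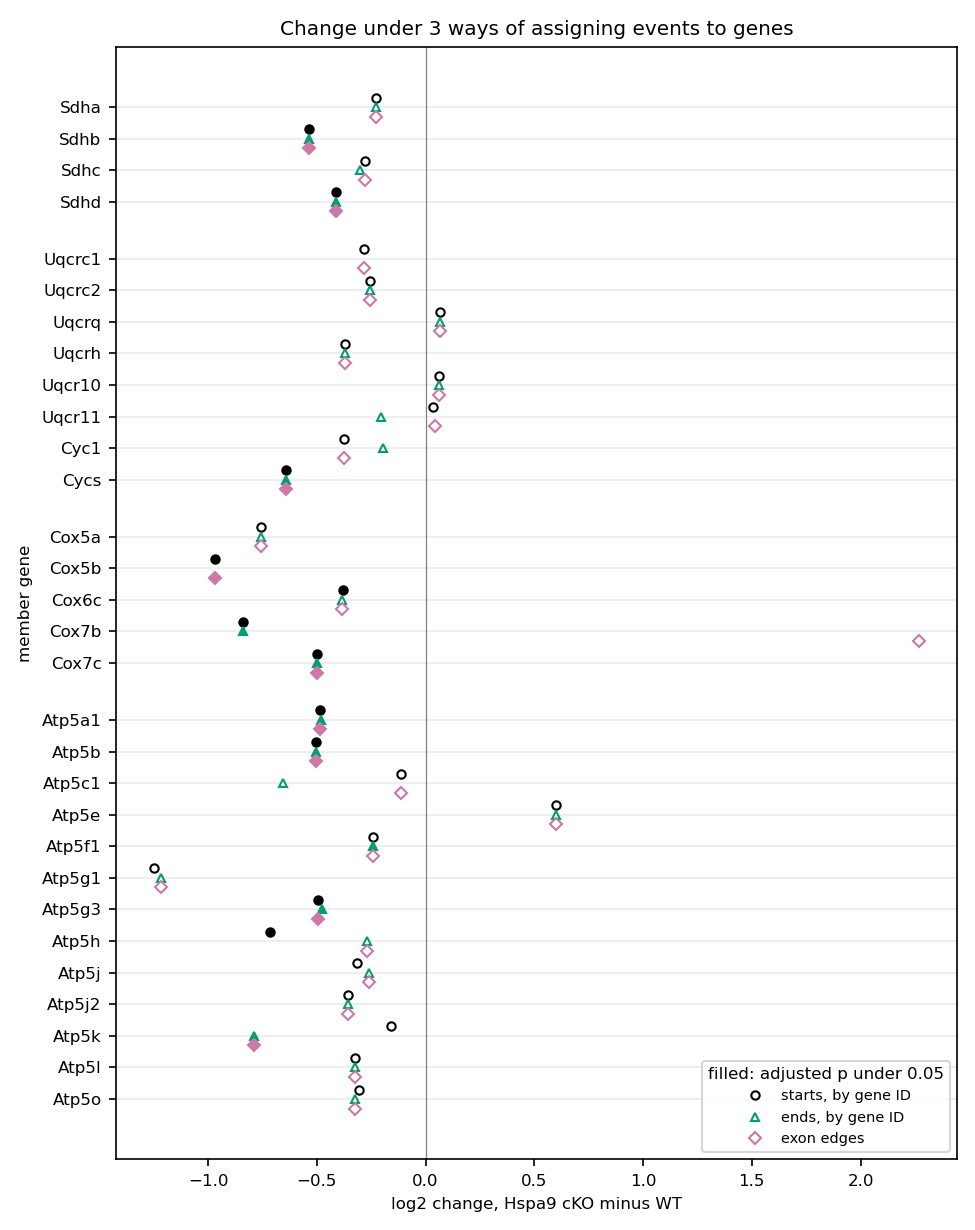
Log2 change of each tested member, Hspa9 cKO minus WT, when its level is taken from transcript starts by gene ID (circles), from transcript ends by gene ID (triangles) or from events placed by annotated exon edges (diamonds); filled markers have a limma adjusted p under 0.05. The markers lie close together for most members, and stand apart for Cox7b (2.27 by exon edges), Atp5h, Atp5k, Atp5c1 and Cyc1; the triangle of Uqcr11 comes from ends that match exon edges of Mbd3 and is no value of Uqcr11.

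Within each library, the median difference of the members from the WT mean put the groups apart in every assembly. For complex IV it was -0.84, -0.73 and -0.48 in Hspa9 cKO, against 0.05, -0.16 and 0.08 in WT. For complex V it was -0.47, -0.43 and -0.35 in Hspa9 cKO and between -0.10 and 0.08 in WT. In complex III the distance was smallest, with -0.22, -0.34 and -0.14 in Hspa9 cKO and between -0.06 and 0.17 in WT. Whether the assemblies differ from each other in their change was not tested.

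**Figure D5:**
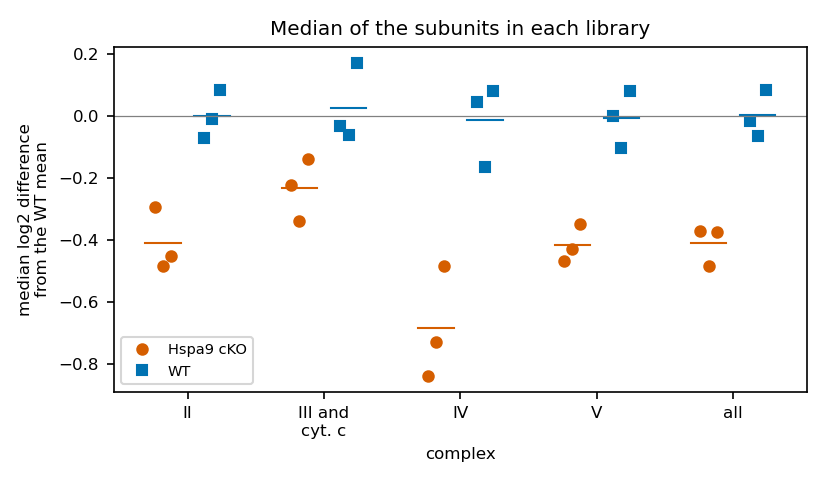
Median over the tested members of each assembly of the log2 difference between 1 library and the WT mean, with circles for the 3 Hspa9 cKO libraries, squares for the 3 WT libraries and bars for their means. In each assembly the Hspa9 cKO libraries lie below the WT libraries, most widely in complex IV and least in complex III with cytochrome c.

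Many members have short transcripts, and transcript length was related to the change over all genes. Of the 30 tested members, 11 had principal transcripts of over 500 and up to 1000 nucleotides and a median change of -0.38, beside -0.06 over the 566 tested genes of that length. For the 10 members of over 1000 and up to 2000 the median was -0.33, beside 0.01 over 1988 genes, and for the 5 members of over 2000 and up to 5000 it was -0.48, beside 0.08 over 4900 genes. The 4 members of up to 500 nucleotides had a median of 0.05, beside -0.01 over 254 genes. With each library's trend over length and GC content removed, 14 members were called lower and 0 higher, beside 7.79% of the 9295 genes tested that way called lower and 7.14% called higher.

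Inclusion of exons and retention of introns are readouts that did not choose the members, and no change in them was called. The choice of transcript starts, transcript ends and splice acceptors was not tested. There were 21 pairs of inclusion and exclusion events listed under the IDs of 14 members. Some can belong to a gene that shares the ID, as Mbd3 does with Uqcr11 and Donson with Atp5o. Of these pairs 0 were called, beside 0.227% of all 10570 pairs (limma on log2 of the ratio of inclusion to exclusion, each plus 1 FPKM, adjusted p under 0.05). At an unadjusted p under 0.05, 4 passed, in Cox5b, Atp5k, Uqcrc1 and Atp5c1. The share of all pairs that passed it is not given here. In the pairs of Cox5b (annotated exon 3), Atp5k and Uqcrc1, the including form took 99.7% or more of the pair in each library. The Cox5b pair leaves out the earlier acceptor, which took 71.97% of the forms with exon 3 in Hspa9 cKO replicate 3. With 1 FPKM added, the ratios of these pairs mostly follow the level of the including form. The most abundant minor forms were in Atp5j, Atp5d and Atp5c1. In Atp5j, the form with an extra exon was at 7.56, 6.53 and 15.9 FPKM in Hspa9 cKO and at 13.4, 14.5 and 0.00353 FPKM in WT, against 25.5 to 36.0 FPKM in Hspa9 cKO and 27.4 to 67.2 FPKM in WT for the form without it. The form of Atp5d that skips an exon was at 4.54 to 6.04 FPKM in Hspa9 cKO and 4.63 to 6.82 FPKM in WT. In Atp5c1, whose short exon near the end of the coding sequence is known to be skipped in muscle, the skipping form was at 4.27, 3.49 and 4.41 FPKM in Hspa9 cKO and at 0.0124, 0.0243 and 3.21 FPKM in WT; the groups did not overlap, and the log2 ratio change of -2.37 was not called (adjusted p = 0.392).

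Other subunits of complexes II to V, 12 of them tested, moved in both directions, with 3 called lower, 2 higher and a median of -0.35. For comparison, 5.61% of all tested genes were called lower and 8.48% higher. Cox7a2, the common isoform of a small complex IV subunit, was at 49.1, 44.1 and 50.4 FPKM in Hspa9 cKO and 71.2, 71.6 and 75.1 FPKM in WT (log2 change -0.59, limma, adjusted p = 0.00764). Ndufa4, now placed in complex IV, was at 61.3, 57.8 and 73.3 FPKM in Hspa9 cKO and at 103.9, 99.1 and 97.5 FPKM in WT (-0.64, adjusted p = 0.0133). Cox6a2, the heart and muscle isoform, was at 36.1, 40.3 and 64.9 FPKM in Hspa9 cKO and at 0.698, 0.496 and 0.575 FPKM in WT (4.87, adjusted p = 0.000479; 2.49 from transcript ends), while its ubiquitous counterpart Cox6a1 averaged 86.2 FPKM in Hspa9 cKO and 108.6 FPKM in WT (-0.35, adjusted p = 0.211). Cox7a2l, which joins complexes III and IV into supercomplexes, was at 143.3, 137.8 and 135.8 FPKM in Hspa9 cKO and at 111.5, 104.1 and 114.8 FPKM in WT (0.33, adjusted p = 0.0278). The call of Cox7a2l was lost under rescaling by trimmed means (0.27, adjusted p = 0.0535) or median ratios (0.28, adjusted p = 0.0511) and without any library but WT replicate 3 (0.29 to 0.35), and that of Ndufa4 without replicate 1 of either group (-0.61, adjusted p = 0.0514 without Hspa9 cKO replicate 1 and 0.0506 without WT replicate 1).

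Of the 6 tested carriers and channels that supply ATP synthase, 4 were called lower and 0 higher, all 6 had negative changes, and the median was -0.37. The shares over all tested genes were 5.61% called lower and 8.48% called higher. Without any 1 Hspa9 cKO library 0 of the 6 were called, and without WT replicate 1, 2 or 3 the count was 1, 3 or 2 called lower; with no filter or untrended variances it was 1. Slc25a4, an ATP/ADP exchanger, was at 46.3, 46.2 and 47.2 FPKM in Hspa9 cKO and at 59.7, 61.9 and 60.01 FPKM in WT (-0.37, limma, adjusted p = 0.0155), and Slc25a5, the abundant exchanger of this family, was at 440.2, 433.5 and 396.4 FPKM in Hspa9 cKO and at 555.5, 527.8 and 668.6 FPKM in WT (-0.46, adjusted p = 0.0389). In neither exchanger did the groups overlap. The call of Slc25a4 was lost without any 1 Hspa9 cKO library (-0.37 to -0.38) and that of Slc25a5 without any 1 Hspa9 cKO library or WT replicate 1 (-0.41 to -0.49). Slc25a3, the phosphate carrier, and Vdac1, a channel of the outer membrane, had -0.34 and -0.58 (adjusted p = 0.0445 and 0.0476) and lost their calls whichever library was left out.

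Assembly factors of the same complexes, 25 of them tested, had a median change of 0.03, with 0 called in either direction by limma and 5 at an unadjusted p under 0.05, a share below the 31.3% of all genes tested that passed it. Regulators of respiratory chain genes had a median of 0.02 over 16 tested, with 2 called higher and 0 lower. Over all tested genes 8.48% were called higher and 5.61% lower. Perm1, known as a muscle regulator of such genes, was at 29.3, 36.8 and 35.2 FPKM in Hspa9 cKO and at 20.97, 18.8 and 17.6 FPKM in WT (0.79, limma, adjusted p = 0.0105). Gabpb1, a subunit of GABP, was at 11.3, 9.79 and 11.6 FPKM in Hspa9 cKO and at 7.82, 7.73 and 7.402 FPKM in WT (0.45, adjusted p = 0.0299). Perm1 was not called from its transcript ends (0.53, adjusted p = 0.0986), nor Gabpb1 without any 1 library but Hspa9 cKO replicate 2 (0.41 to 0.47). With events placed by annotated exon edges, Perm1 had no tested level and 1 regulator was called higher. The events listed under the ID of Perm1 may therefore not be its own. For the factors whose letters were searched, Nrf1 had 0.07, Gabpa -0.03 and Yy1 -0.03, none of them called (adjusted p between 0.655 and 0.874).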

How the data were processed

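RNA sequencing gave 1 table per library, 3 for Hspa9 cKO and 3 for WT, grouped by sample title. The submitters' processing notes name cutadapt 1.9.1, which trims reads, and the build mm10; aligner, assembler and annotation: not given in the sources used here. Values are FPKM of transcript-structure events of 20 types, per the file headers, as deposited. The tables hold no counts, so depth is unknown and no counting interval can be given; the summed FPKM of start events was 248014 to 252474 in Hspa9 cKO and 256513 to 272918 in WT.

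Repeated events were dropped. Start events were summed per gene, or end events where these were listed in more libraries; events not listed entered as 0. This took starts for 11435 genes, ends for 800. Of the 12288 gene IDs, 720 held starts or ends that match an exon edge of another gene. Genes that reached 1 FPKM in 3 libraries were tested on log2(FPKM + 1), which understates changes of low genes, with limma 3.58.1 in R 4.3.3 (trended, robust variances, two-sided, Benjamini-Hochberg threshold 0.05). A sum over members is a description with no test. With 3 against 3 libraries, an exact two-sided permutation test cannot go below 0.1.

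The members, gene lists and markers were chosen with earlier results of these data known. Some marker genes are not reported here. Values in each library are given for called members and for the 2 with the highest level in each complex. Additional named members are those at an extreme or with a changed sign or call, and for other lists the 2 most strongly called genes in each direction, by adjusted p; Cox6a1, Slc25a3, Vdac1, Nrf1, Gabpa and Yy1 were named after their values were seen. Alternatives were a replicate block, other filters, a pseudocount of 0.1, rescaling, ends or exon edges in place of starts, removal of length and GC trends, untrended variances and leaving out each library. In simulated data with 9300 genes, limma called 16 of 100 genes changed by 0.5 and 65 of 100 changed by 1 on the log2 scale, with 2 false calls among 83.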

Additional observations from a re-analysis of the deposited data

How the results depend on the processing

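Direction held for every called member under every alternative run except Cox7b by exon edges (2.27). With a replicate block 1 member was called lower (Cycs), 4 with length and GC trends also removed. Over all genes the block left 174 higher and 94 lower, or 205 and 200 with the trends removed. The labels do not say whether same-numbered libraries were paired. Their deviations from the group means correlated between -0.016 and -0.004, against -0.037 to 0.043 for differently numbered libraries. These correlations show no shared deviation over all genes and cannot tell whether the libraries were made in pairs. Leaving out 1 library gave 314 to 515 genes higher, 218 to 334 lower and 6 to 11 members lower, and medians of -0.48 to -0.31 for complex II, -0.46 to -0.25 for complex V and -0.45 to -0.30 for all members. Sdhb, Cycs, Atp5a1, Atp5b, Atp5g3 and Atp5h stayed called whichever library was left out. Rescaling by trimmed means put the median of complex V at -0.39 and of all members at -0.43, and exon edges put that of complex IV at -0.50. Members not called whose sign turned when 1 library was left out had ranges of -0.52 to 0.084 (Sdha), -0.020 to 0.19 (Uqcrq), -0.17 to 0.21 (Uqcr10), -0.20 to 0.30 (Uqcr11), -0.41 to 0.090 (Atp5k) and -0.62 to 0.041 (Atp5o); Uqcr11 also had -0.034 under trimmed means, -0.026 under median ratios and, from ends that match exon edges of Mbd3 and not of Uqcr11, -0.21. The causes were not tested. A 0 can be a failed estimate, and the depth behind low levels is unknown.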

Other observations

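Several members used more than 1 transcript start in these cells. In Atp5g3, a first exon with a splice donor other than the principal one took 71.2% ± 2.43 of the start FPKM in Hspa9 cKO and 71.95% ± 0.545 in WT (SD, n = 3 each); these shares overlapped. In Atp5b, a start inside the gene took 8.23% ± 0.367 in Hspa9 cKO and 8.07% ± 1.01 in WT. In Atp5g1, the longer of the overlapping first exons took 91.6%, 22.9% and 91.1% in Hspa9 cKO replicates 1 to 3 and 93.0%, 87.6% and 93.5% in WT replicates 1 to 3. Hspa9 cKO replicate 2, with the low share, also had the lowest Atp5g1 level.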
